A study of Homo sapiens with 6 samples.

Results

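The mitochondrial rRNA unit is the run of 5 adjoining transcripts on the plus strand of the human mitochondrial genome that holds both ribosomal RNAs and the 3 transfer RNAs beside and between them. It was taken as the rows of the isoform table named MT-TF, MT-RNR1, MT-TV, MT-RNR2 and MT-TL1, which are 5 of 99 analysed rows and 5 of the 37 mitochondrial transcripts among them. The RNA came from LNCaP-AI cells, which the labels call a castration-resistance line and which derive from the LNCaP prostate cancer line. The sh_0092339 group (3 libraries) carried a short hairpin named for the circular RNA hsa_circ_0092339, and the NC group (3 libraries) carried a control vector. All 3 sh_0092339 libraries bear the same hairpin name, so what that hairpin does to other RNAs and what it does through the circular RNA cannot be told apart, and the circular RNA was not analysed here. The labels do not say that the libraries came from separate cultures, so the spread between them may be technical. None of the 23 markers of luminal prostate and other cell types that were looked for was among the analysed rows, so the labelled cell type was not checked.

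Human mitochondria transcribe the plus-strand genes as a long precursor RNA. Its tRNAs are cut out at their 5′ ends by mitochondrial RNase P and at their 3′ ends by ELAC2, which frees the rRNAs and mRNAs that lie between them, the arrangement known as tRNA punctuation. MT-RNR1 is the 12S rRNA of the small subunit of the mitochondrial ribosome and MT-RNR2 the 16S rRNA of the large subunit. MT-TF, MT-TV and MT-TL1 are the tRNAs for phenylalanine, for valine and for leucine with UUA or UUG codons. The valine tRNA is also built into the large subunit of the human mitochondrial ribosome, and the leucine tRNA gene holds the site where the termination factor MTERF1 binds. A precursor that ends near this site has been proposed to supply rRNAs in excess over the mRNAs encoded further along.

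The sequences of the unit are shown because the values of the 5 transcripts were measured edge to edge, and they come from GENCODE 29 transcripts on GRCh38, where all 37 mitochondrial rows have the place and strand given in the table. The unit runs from base 577 to base 3304 (2728 bases) of the mitochondrial chromosome (MT), with 0 bases between members and 2 bases between MT-TL1 and the next gene, MT-ND1. The tRNAs are given whole with their anticodons in capitals, at positions 35 to 37 of MT-TF, 32 to 34 of MT-TV and 36 to 38 of MT-TL1, counted from the 5′ end. Each anticodon is the single match to a T, the 3 anticodon letters (GAA, TAC or TAA) and an A or G in the middle of the tRNA, on the plus strand. For the rRNAs the first and last 40 bases are given, which are the ends that adjoin the tRNAs.
MT-TF (577 to 647, 71 bases): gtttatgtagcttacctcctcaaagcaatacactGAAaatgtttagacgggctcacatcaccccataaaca
MT-RNR1, start (648 to 687): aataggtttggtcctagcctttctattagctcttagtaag
MT-RNR1, end (1562 to 1601): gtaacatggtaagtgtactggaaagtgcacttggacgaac
MT-TV (1602 to 1670, 69 bases): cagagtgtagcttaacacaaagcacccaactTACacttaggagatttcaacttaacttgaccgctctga
MT-RNR2, start (1671 to 1710): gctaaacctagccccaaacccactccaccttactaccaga
MT-RNR2, end (3190 to 3229): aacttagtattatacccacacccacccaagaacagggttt
MT-TL1 (3230 to 3304, 75 bases): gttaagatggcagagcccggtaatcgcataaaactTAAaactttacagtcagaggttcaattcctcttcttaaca

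MT-RNR1 is 954 bases long and MT-RNR2 1559 bases. The G and C content was 40.9% for MT-TF, 45.5% for MT-RNR1, 42.0% for MT-TV, 42.8% for MT-RNR2 and 38.7% for MT-TL1, and the 19 other mitochondrial tRNAs ran from 23.1% to 49.3% with a median of 37.9%. The 3 tRNAs of the unit lie within that range. Outside the mitochondrial genome, 6 annotated genes of GENCODE 29 have a transcript stretch of at least 50 bases with at least 90% identity to MT-RNR2, the longest being 1302 bases of MTRNR2L8 at 93.0% and 1048 bases of MTRNR2L12 at 95.0%. The same search found 0 such genes for the other 4 members. It covered annotated transcripts only, so nuclear copies of mitochondrial sequence outside them were not counted for any member. The sources used here do not say how reads were counted that match several places or span the edge between adjoining transcripts. Reads that match several places make the MT-RNR2 value uncertain. For the other 4 members, matches outside annotated transcripts were not tested. Reads that span an edge make all 5 members uncertain, and the tRNAs are only 69 to 75 bases long. Whether the counts of a tRNA came from the free tRNA or from precursor RNA was not tested.

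All 5 members were lower in the sh_0092339 libraries than in the NC libraries, with every sh_0092339 library below every NC library for each of them. The unit was chosen by this very difference in FPKM between the groups, so the difference is given as a description, with no test of its own. In the fit over all rows, the 5 members were among the 9 of 45 tested isoforms called lower (20.0%, adjusted p under 0.05 by limma), and they were 5 of 13 isoforms (28.9% of 45) with all sh_0092339 values below all NC values. These 45 were all 37 mitochondrial transcripts, the members included, and isoforms of only PLCXD1, GTPBP6 and PPP2R3B. They are therefore not a background of nuclear genes at large. The median log2 difference, sh_0092339 minus NC, was -1.14 over the 5 members and 0.03 over the 45 tested isoforms. With quantile normalization of these 45 rows MT-RNR1 and MT-TL1 had a difference of 0, while MT-TF, MT-TV and MT-RNR2 were still lower in sh_0092339. Quantile normalization gives the same value to the same rank in every library. MT-RNR1 and MT-TL1 each kept their rank in all 6 libraries, so their 0 followed from the method. In RNA of whole cultures, fewer cells with a transcript and less of it per cell cannot be told apart.

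The 16S rRNA, MT-RNR2, was the most abundant member. It had 2346, 2282 and 2213 FPKM (fragments per kilobase of transcript, scaled to the library's mapped fragments) in the sh_0092339 libraries, against 5182, 4854 and 5096 FPKM in the NC libraries. The libraries of each group lay close together and far from the other group. The means were 2281 ± 66.6 FPKM in sh_0092339 and 5044 ± 170 FPKM in NC (SD, n = 3 each), a ratio of 0.452. The deposited counts behind these values were 194348, 286586 and 254035 in sh_0092339 and 469323, 443526 and 548106 in NC. On the log2(FPKM + 1) scale the difference was -1.14 ± 0.0459 (SE from limma).

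The 12S rRNA, MT-RNR1, differed by less. It had 551, 579 and 595 FPKM in the sh_0092339 libraries, against 893, 871 and 821 FPKM in the NC libraries, from counts of 27927 to 44533 and 48688 to 54066. The means were 575 ± 22.4 FPKM in sh_0092339 and 862 ± 36.8 FPKM in NC (SD, n = 3 each), a ratio of 0.667 and a log2 difference of -0.58 ± 0.0682 (SE). The coefficient of variation within a group was 3.89% and 4.27% for 12S and 2.92% and 3.37% for 16S, in sh_0092339 and NC in that order, whereas counting error at these depths was at most 0.598% and 0.227%. The spread between libraries, and not the number of fragments, set the precision of both rRNAs.

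MT-TF, the phenylalanine tRNA at the 5′ end of the unit, had the largest log2 difference of the 5. It had 26.1, 22.5 and 24.8 FPKM in the sh_0092339 libraries, against 114, 109 and 122 FPKM in the NC libraries. These values rest on 99, 129 and 130 counts in sh_0092339 and 470, 456 and 598 counts in NC. The groups are far apart in relation to the counting error, which was 10.1% at the lowest of these counts. The means were 24.5 ± 1.78 FPKM in sh_0092339 and 115 ± 6.38 FPKM in NC (SD, n = 3 each), with a ratio of 0.213 and a log2 difference of -2.19 ± 0.124 (SE).

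MT-TV, the valine tRNA between the rRNAs, was the lowest member. It had 12.3, 11.3 and 11.1 FPKM in the sh_0092339 libraries, against 26.7, 30.9 and 34.3 FPKM in the NC libraries. The counts were 46, 63 and 57 in sh_0092339 and 108, 125 and 164 in NC, so counting error reached 14.7% against a coefficient of variation of 5.33% in sh_0092339 and 12.3% in NC. The ratio of the means was 0.378 and the log2 difference -1.33 ± 0.155 (SE). A pseudocount of 10 FPKM, which is close to the sh_0092339 level of this tRNA, gave -0.909.

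MT-TL1, the leucine tRNA at the 3′ end, was far more abundant than the other tRNAs of the unit and differed least. It had 795, 768 and 704 FPKM in the sh_0092339 libraries, against 1191, 1017 and 1043 FPKM in the NC libraries, from 3167 to 4640 and 4469 to 5396 counts. The highest sh_0092339 library and the lowest NC library were the nearest of all 5 members in relative terms. The ratio of the means was 0.697 and the log2 difference -0.52 ± 0.0883 (SE).

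**Figure D1:**
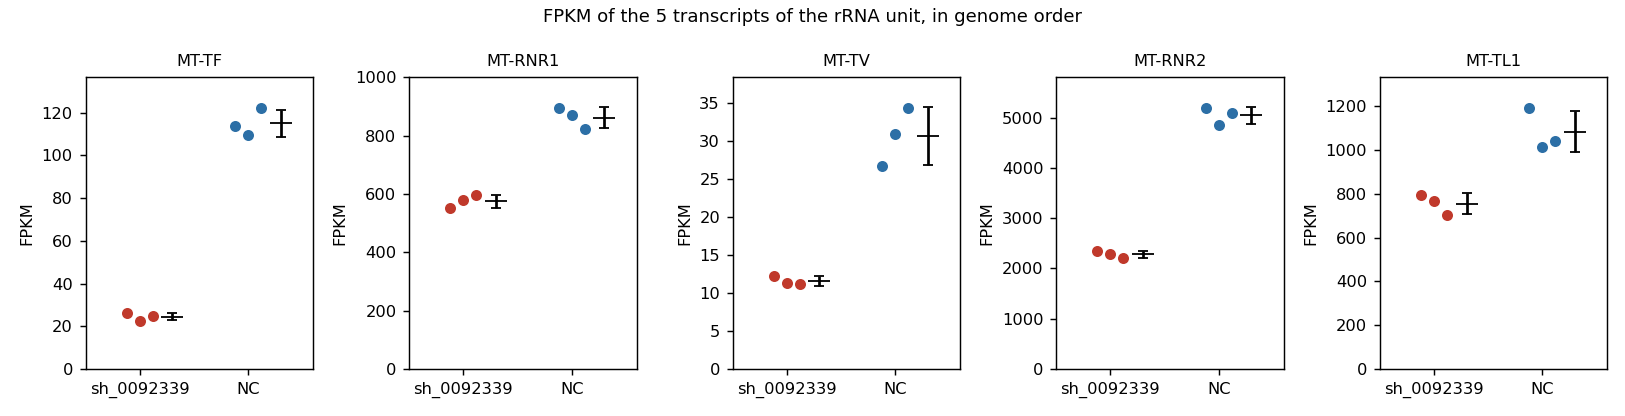
FPKM of the 5 members in each library, in genome order, with sh_0092339 left and NC right in each panel; points are libraries and the black mark is the mean with its SD (n = 3). The points of the groups do not overlap in any panel. MT-RNR2 is at 2213 to 2346 FPKM in sh_0092339 and 4854 to 5182 FPKM in NC. After quantile normalization MT-RNR1 and MT-TL1 had a difference of 0, because each had the same rank in all 6 libraries.

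The order of the levels per length was the same in both groups, namely MT-RNR2, MT-TL1, MT-RNR1, MT-TF and MT-TV from high to low. No neighbours in this order overlapped within a group. The nearest were MT-TL1 and MT-RNR1, whose FPKM ratio was 1.44, 1.33 and 1.18 in the sh_0092339 libraries and 1.33, 1.17 and 1.27 in the NC libraries. That ratio overlapped between the groups, with means of 1.32 ± 0.130 in sh_0092339 and 1.26 ± 0.0835 in NC (SD, n = 3 each). In the genome MT-TV and 16S lie between these transcripts.

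The 16S to 12S ratio of FPKM within a library, which does not depend on how libraries are scaled, was 4.26, 3.94 and 3.72 in the sh_0092339 libraries and 5.80, 5.57 and 6.20 in the NC libraries. Its means were 3.97 ± 0.272 in sh_0092339 and 5.86 ± 0.319 in NC (SD, n = 3 each), and the groups did not overlap. In both groups 16S was therefore counted several times more often per base than 12S, and the excess was smaller in sh_0092339. Of all counts of the unit, 12S took 12.4%, 13.3% and 13.9% in sh_0092339, against 9.44%, 9.79% and 8.89% in NC.

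The tRNAs did not keep a fixed ratio to the rRNAs. MT-TF stood at 0.0473, 0.0389 and 0.0416 of the FPKM of 12S, its 3′ neighbour, in the sh_0092339 libraries and at 0.127, 0.126 and 0.149 in the NC libraries. Relative to the summed FPKM of both rRNAs, MT-TF was at 8.99, 7.88 and 8.83 per 1000 in the sh_0092339 libraries and at 18.7, 19.1 and 20.6 per 1000 in the NC libraries. The FPKM of MT-TF was thus lower in sh_0092339 by more than the FPKM of the rRNAs was.

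MT-TL1 differed the other way in relation to 16S, its 5′ neighbour. The ratio of MT-TL1 to MT-RNR2 was 0.339, 0.337 and 0.318 in the sh_0092339 libraries and 0.230, 0.209 and 0.205 in the NC libraries. Every sh_0092339 library was above every NC library, because MT-RNR2 was lower by a larger factor than MT-TL1. Over both rRNAs together the ratio of MT-TL1 was 0.264 ± 0.0123 in sh_0092339 and 0.183 ± 0.0111 in NC (SD, n = 3 each).

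MT-TV lies between the rRNAs and kept closer to 16S than to 12S. Its FPKM per 1000 of 16S were 5.23, 4.95 and 5.04 in the sh_0092339 libraries and 5.16, 6.37 and 6.72 in the NC libraries, and these ranges overlapped. Per 1000 of 12S it had 22.3, 19.5 and 18.7 in sh_0092339 and 29.9, 35.5 and 41.7 in NC, with no overlap. Set against both rRNAs it had 4.05 ± 0.163 per 1000 in sh_0092339 and 5.19 ± 0.717 per 1000 in NC (SD, n = 3 each), where the nearest libraries were at 4.24 and 4.40. Among the tRNAs, MT-TF over MT-TV was 2.11 ± 0.114 in sh_0092339 and 3.79 ± 0.407 in NC, so the tRNAs of the unit did not differ by a common factor.

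**Figure D2:**
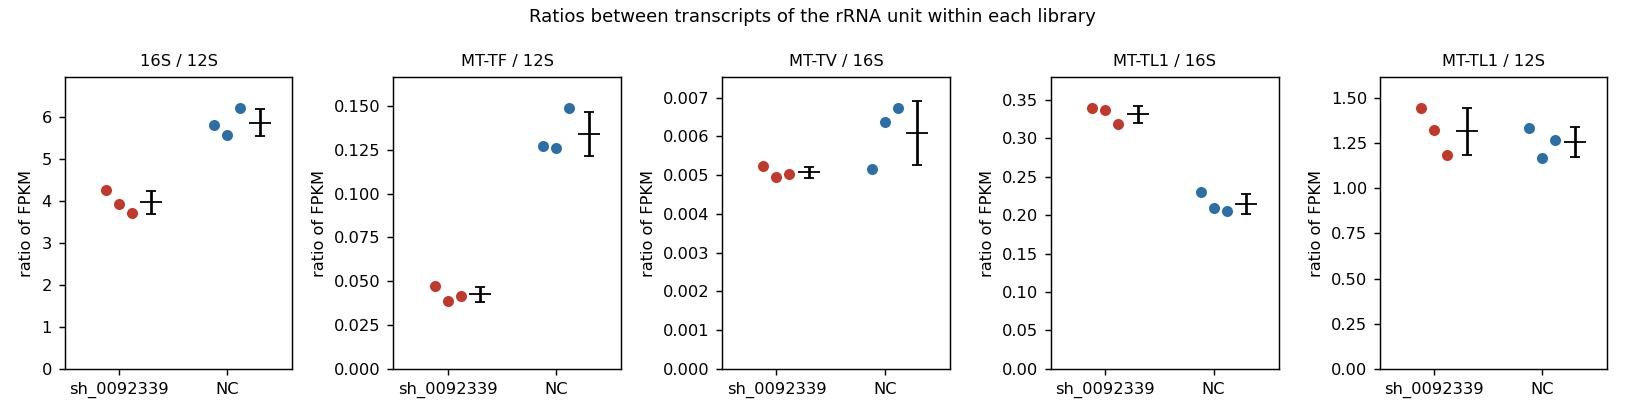
Ratios of FPKM between members within each library, with sh_0092339 left and NC right; points are libraries and the black mark is the mean with its SD (n = 3). The 16S to 12S ratio was 3.97 in sh_0092339 and 5.86 in NC, MT-TL1 over 16S was higher in sh_0092339, and MT-TV over 16S and MT-TL1 over 12S overlapped between the groups.

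By the size of their difference, MT-RNR1 lay nearest to MT-TL1 and MT-RNR2 nearest to MT-TV. Over the 6 libraries, the root mean square distance between log2(FPKM + 1) profiles, each centred on its own mean, was 0.105 between MT-RNR1 and MT-TL1 and 0.146 between MT-RNR2 and MT-TV. The other 8 pairs of members were at 0.290 to 0.843, with MT-TF at least 0.442 from every other member. Outside the unit, the rows nearest to MT-RNR1 were MT-TY (0.119), MT-TC (0.122) and the isoform ENST00000390665 of PPP2R3B (0.143), a regulatory subunit of protein phosphatase 2A. Those nearest to MT-RNR2 were the same PPP2R3B isoform (0.206), MT-TC (0.365) and MT-TA (0.371). These distances describe 6 libraries in 2 groups and mainly reflect how far the groups lay apart.

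Both rRNAs together held 0.418%, 0.411% and 0.402% of the mapped fragments in the sh_0092339 libraries and 0.893%, 0.840% and 0.873% in the NC libraries. The 3 tRNAs of the unit added 0.00592 ± 0.000356% in sh_0092339 and 0.00916 ± 0.000685% in NC (SD, n = 3 each). Nearly all of the unit's fragments were rRNA. As a share of all mitochondrial counts, the unit took 5.34 ± 0.116% in sh_0092339 and 10.7 ± 0.198% in NC. The mapped fragments, recovered from the deposited counts, lengths and FPKM, numbered 53127020, 80559726 and 73620788 in sh_0092339 and 58091756, 58606592 and 68990788 in NC. The shallowest and the deepest library were both sh_0092339 libraries, and their 16S values were within 2282 to 2346 FPKM.

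The mRNAs of the same genome held 7.45%, 7.55% and 7.06% of mapped fragments in sh_0092339 and 7.64%, 6.98% and 7.16% in NC, and these ranges overlapped. The 19 other tRNAs together held 0.0335%, 0.0405% and 0.0364% in sh_0092339 and 0.0434%, 0.0470% and 0.0453% in NC, with no overlap. A lower share in sh_0092339 was thus not limited to the unit. Singly, these tRNAs differed in both directions, as given below. The counts of both rRNAs were 5.62%, 5.44% and 5.69% of those of the 13 mRNAs in the sh_0092339 libraries and 11.7% to 12.2% in the NC libraries. The rRNA to mRNA balance therefore differed between the groups without overlap, and the libraries within each group lay close together. The sources used here do not state a step of rRNA depletion or of poly(A) selection. These shares describe the sequenced libraries, and the part of library preparation in the difference was not tested.

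**Figure D3:**
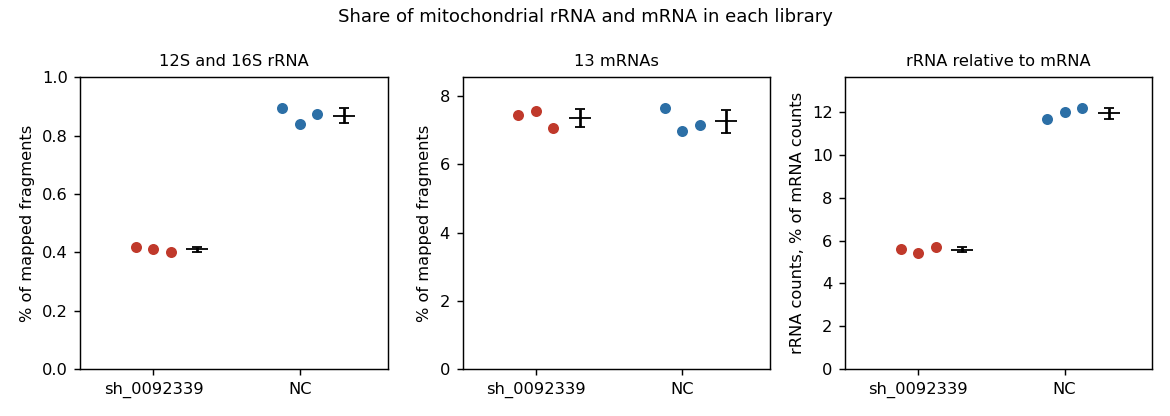
Share of mapped fragments on both mitochondrial rRNAs and on the 13 mitochondrial mRNAs, and rRNA counts as a percent of mRNA counts, in each library, with sh_0092339 left and NC right; points are libraries and the black mark is the mean with its SD (n = 3). The rRNA share was 0.410% in sh_0092339 and 0.869% in NC, while the mRNA shares overlapped.

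Of the rows next to the unit, neither was called different between the groups. MT-ND1, a subunit of complex I whose mRNA begins 2 bases after MT-TL1, had 6198, 6329 and 5675 FPKM in the sh_0092339 libraries and 6772, 5712 and 5891 FPKM in the NC libraries. It did not pass the test (log2 difference -0.01 ± 0.0785 SE, limma adjusted p = 0.891). The ratio of MT-TL1 to MT-ND1 was 0.128, 0.121 and 0.124 in sh_0092339 and 0.176, 0.178 and 0.177 in NC, which was among the tightest ratios within a group. On the other side, across the non-coding control region, the nearest row was MT-TP, the proline tRNA on the minus strand. Its values were 215, 203 and 187 FPKM in sh_0092339 and 205, 187 and 190 FPKM in NC, and it did not pass the test either (limma adjusted p = 0.722).

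**Figure D4:**
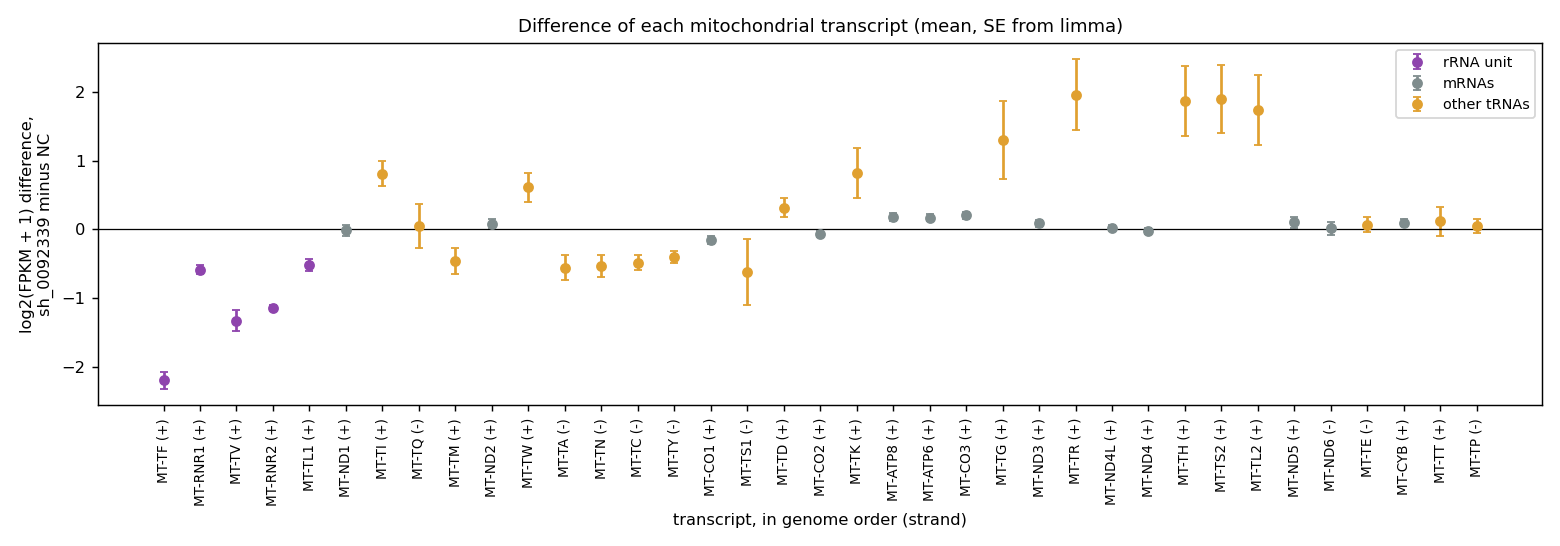
Difference in log2(FPKM + 1), sh_0092339 minus NC, of the 37 mitochondrial transcripts in genome order, with the SE from limma as bars; the rRNA unit is purple, mRNAs are grey and other tRNAs are orange. The 5 members run from -2.19 (MT-TF) to -0.52 (MT-TL1) and the next transcript, MT-ND1, is at -0.01. After quantile normalization MT-RNR1 and MT-TL1 had a difference of 0, because each had the same rank in all 6 libraries.

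Of the 13 mitochondrial mRNAs, 2 rose, 0 fell and 11 did not pass the test (15.6% of the 45 tested isoforms were called higher). The called ones were MT-CO3, a subunit of cytochrome c oxidase, with a log2 difference of 0.20, and MT-ATP6, a subunit of ATP synthase, with 0.17 (limma adjusted p = 0.0317 and 0.0433). At an unadjusted p under 0.05, limma had 1 mRNA lower, and DESeq2 called 1 lower, edgeR 0 with the recovered library sizes and 2 with TMM factors. Neither rise was called without sh_0092339 1, 2 or 3, NC 2 or NC 3, where 1 to 3 mRNAs were higher at an unadjusted p under 0.05. Of the 19 other tRNAs, limma called 5 higher and 3 lower, and 11 did not pass. The largest log2 differences among those called higher were 1.95 ± 0.518 for the arginine tRNA MT-TR, 1.89 ± 0.499 for the serine tRNA MT-TS2, 1.86 ± 0.504 for the histidine tRNA MT-TH and 1.73 ± 0.502 for the leucine tRNA MT-TL2 (SE). NC 3 lay above NC 1 and NC 2 for each of these, as for MT-TR, which had 102, 59.7 and 63.8 FPKM in the sh_0092339 libraries and 12.1, 11.6 and 41.0 FPKM in the NC libraries. Without NC 3 the difference of MT-TR was 2.52, and without NC 2 it was 1.66. None of these 4 was called by edgeR or with quantile normalization, whereas DESeq2 called all 4. Of the tRNAs called higher by limma, edgeR called the isoleucine tRNA MT-TI (log2 difference 0.81 ± 0.184 by limma), and with TMM factors it also called the tryptophan tRNA MT-TW, which limma did not call. The 3 called lower were MT-TN, MT-TC and MT-TY, minus-strand tRNAs for asparagine, cysteine and tyrosine, at -0.53, -0.48 and -0.41. With quantile normalization MT-TC, whose rank was the same in all 6 libraries, was at 0, and MT-TY was at 0.0356. Of the 3 called lower by limma, edgeR called MT-TC and MT-TY. No tRNA was called higher by limma without sh_0092339 1, sh_0092339 3, NC 1 or NC 2 (5 or 6 at an unadjusted p under 0.05), and none lower without sh_0092339 3, NC 1 or NC 2 (2 to 5 unadjusted). With TMM scaling of counts, edgeR called 4 isoforms higher and 11 lower, against 7 and 9 by limma on FPKM. Over the 32 mitochondrial transcripts outside the unit, log2 differences ran from -0.62 to 1.95, and 3 of them (MT-TA, MT-TN and MT-TS1, singled out after their values were seen) were below MT-TL1.

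Among the 22 mitochondrial tRNAs, those of the unit took very different places by level. MT-TL1 was the highest of the 14 plus-strand tRNAs in both groups, at 756 ± 46.5 FPKM in sh_0092339 and 1084 ± 94.0 FPKM in NC (SD, n = 3 each). The next plus-strand tRNA outside the unit, MT-TH, averaged 132 ± 28.4 FPKM in sh_0092339 and 41.8 ± 32.0 FPKM in NC. The 11 plus-strand tRNAs outside the unit ranged from 6.12 to 161 FPKM over the sh_0092339 libraries and from 3.05 to 78.7 FPKM over the NC libraries. MT-TF was number 16 of 22 in sh_0092339 and number 8 in NC, and MT-TV was number 19 in sh_0092339 and number 13 in NC. MT-TL1 was number 4 in both groups, after MT-TC, MT-TN and MT-TY.

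**Figure D5:**
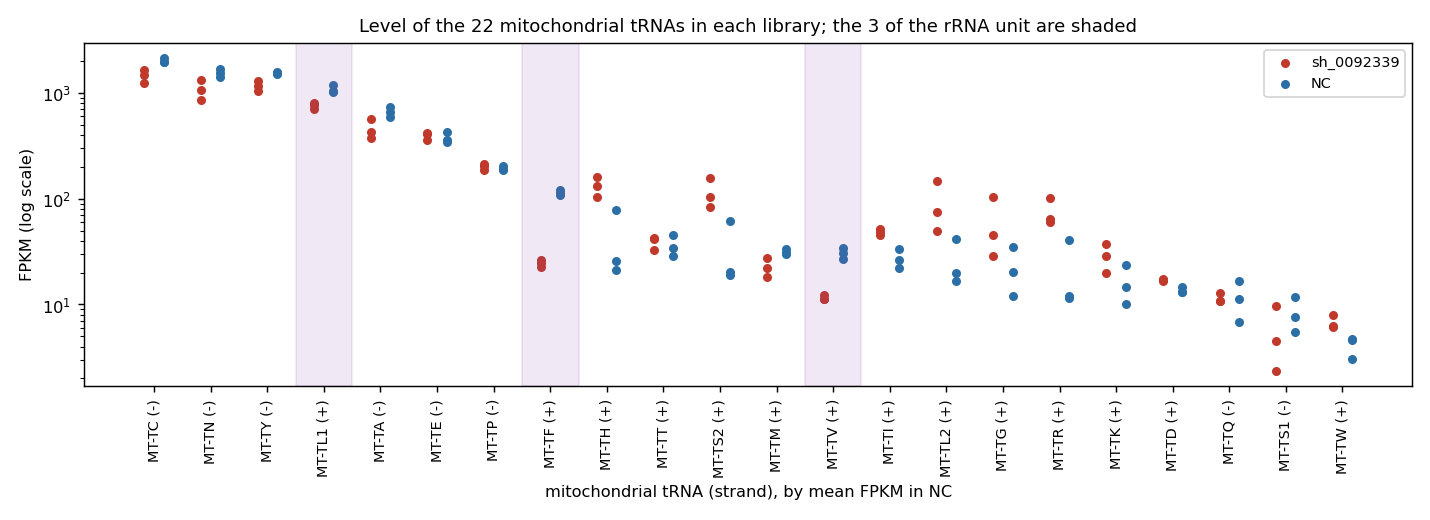
FPKM of the 22 mitochondrial tRNAs in each library on a log axis, ordered by their mean in NC, with sh_0092339 (red) left of NC (blue) and the tRNAs of the unit shaded. MT-TL1 lies at 704 to 795 FPKM in sh_0092339 and 1017 to 1191 FPKM in NC, far above MT-TF and MT-TV.

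Few nuclear genes that make, process or use these RNAs were among the analysed rows. Of 6 lists (mitochondrial transcription, RNA processing, rRNA modification and ribosome assembly, RNA decay, the tRNA synthetases for the 3 amino acids, and mitochondrial ribosomal proteins), 4 had no gene there. GTPBP6, a GTPase of mitochondrial ribosome assembly and recycling, had 22.1, 20.7 and 19.4 FPKM of its protein-coding isoform in the sh_0092339 libraries and 21.3, 21.0 and 18.6 FPKM in the NC libraries. These values overlapped, and neither this isoform (limma adjusted p = 0.884) nor its retained-intron isoform (limma adjusted p = 0.714) passed the test. MRPL49, a protein of the large mitochondrial ribosomal subunit, varied widely between libraries of a group. It had 21.1, 46.2 and 79.1 CPM (counts scaled to mapped fragments) in sh_0092339 and 84.9, 28.8 and 28.2 in NC. It was not called by edgeR's quasi-likelihood test (log2 difference 0.05 ± 0.562 SE, adjusted p = 0.989), in a table where 6.45% of 31 tested genes were called.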

How the data were processed

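RNA of 6 libraries of LNCaP-AI cells was sequenced by the submitters, with cutadapt, HISAT2, StringTie and the build hg18 listed, per the submitters' processing notes (versions not given). The 37 mitochondrial rows have the coordinates of GENCODE 29 on GRCh38. Isoform and gene tables with FPKM beside counts, and further tables of whole-number counts, were deposited by the authors, per the file headers. Counts of 0 are listed at 0.0001 FPKM in the authors' tables. The deposited isoform length served to recover the mapped fragments as the median of count over length and FPKM in 23 or 24 isoforms with at least 1000 counts, which varied by at most 0.0139%.

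Isoform values were tested with limma 3.58.1 (trend, log2(FPKM + 1), mean FPKM of 1 or more, R 4.3.3), which understates changes of low rows. For gene counts the test was the quasi-likelihood one of edgeR 4.0.16, with recovered library sizes and filterByExpr. A row was called where its p, adjusted by Benjamini-Hochberg over all tested rows of its table, was under 0.05. DESeq2 1.42.0 and other scalings, pseudocounts and filters were alternatives. The scripts were tested on simulated data. Replicates of a group differed far beyond counting noise (chi-square of 76.2 to 332 per degree of freedom over the isoform counts), so none was taken for a repeated deposit. Nuclear transcripts alike were searched with blastn 2.17.0 in GENCODE 29 transcripts.

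The members and gene lists were chosen with earlier results of these data known. The text names the members, their genome neighbours, the 3 rows nearest in profile to each rRNA, up to 4 called mRNAs and tRNAs per direction, and genes of the nuclear lists found in the tables. The 99 analysed rows of the gene FPKM table held no gene of these lists, and the comparison planned for them was not run.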

Additional observations from a re-analysis of the deposited data

How the results depend on the processing

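The depth of these libraries limits MT-TF and MT-TV, which rest on at most 598 and 164 counts, and not the rRNAs. Of 150 alternative values for the members, their ratios and their shares, 141 moved by less than 1 SD of the replicates, 9 moved more and 0 changed direction. Many of the 141 could not move that far. The filters and the replicate block leave a member's difference as it is, and counts per base give nearly the same ratios as FPKM. Leaving out 1 of 3 libraries of a group cannot move a difference by 1 SD as taken here. Nor can it change the direction where the groups do not overlap. The 141 are therefore mostly not a check of stability. With a pseudocount of 10 the log2 difference was -1.86 for MT-TF and -0.909 for MT-TV. With quantile normalization it was -2.31 for MT-TF, 0 for MT-RNR1, -1.80 for MT-TV, -1.04 for MT-RNR2 and 0 for MT-TL1. The values of 0 follow from ranks that were the same in all 6 libraries. With the summed isoform counts as the total, the log2 difference of the share was -1.01 for the whole unit and -1.01 for both rRNAs. Most of that total is mitochondrial counts, so these values are close to the share of mitochondrial counts given above and are not a separate check. Leaving out 1 library, the log2 difference ran from -2.23 to -2.13 for MT-TF, from -0.617 to -0.552 for MT-RNR1, from -1.42 to -1.24 for MT-TV, from -1.17 to -1.12 for MT-RNR2, from -0.562 to -0.448 for MT-TL1 and from -0.613 to -0.515 for the 16S to 12S ratio.

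The counts of calls were less stable. Isoforms called higher and lower were 0 and 5 with no low-value filter (more rows tested), 2 and 3 with quantile normalization, 2 and 8 by edgeR on counts, 4 and 11 by edgeR with TMM factors, and 0 to 7 and 5 to 11 leaving out 1 library. Mitochondrial mRNAs called higher were 0 with no low-value filter, 1 with quantile normalization, 1 by edgeR on counts, 4 by DESeq2 and 0 to 2 leaving out 1 library. Those called lower were 3 when scaled to the summed mRNAs, 2 by edgeR with TMM factors, 1 by DESeq2 and 0 to 1 leaving out 1 library. Other tRNAs called higher were 0 with no low-value filter, 1 with quantile normalization, 1 by edgeR on counts, 2 with TMM factors and 0 to 7 leaving out 1 library, and those called lower were 0 with no low-value filter, 0 with quantile normalization and 0 to 4 leaving out 1 library. Gene count rows called higher and lower were 1 and 1; higher they were 0 with no low-count filter and 0 to 1 leaving out 1 library, and lower 3 with TMM factors and 0 to 2 leaving out 1 library. DESeq2's own test of these rows, added after seeing the data, called 0 higher and 2 lower, while its size factors in the edgeR test gave 1 and 1.

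With the replicate block, 1 mitochondrial mRNA and 0 genes of the count table were called higher, and 5 isoforms were called higher and 10 lower. The replicate numbers were not taken as pairs, because deviations of same-numbered libraries correlated at -0.257, 0.220 and 0.0231, and not every library correlated best with its own number. The alternatives for the gene FPKM table were not run, since no gene of the lists was among its analysed rows.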
